A study of Mus musculus with 28 samples.

Results

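The 10 genes described here carry out or control salt and magnesium uptake in the distal convoluted tubule of the kidney. They were taken by gene symbol (Slc12a3, Trpm6, Wnk1, Wnk4, Stk39, Klhl3, Pvalb, Cnnm2, Slc41a3 and Kcnj16) out of 30227 symbols in a kidney count table, and Trpm6 and Wnk1 were also read in a duodenum table of 31179 symbols. All 10 passed the filter on low counts in kidney, where 13502 genes were tested. The study set vitamin D receptor signalling without coactivators against absent receptor signalling, with a view to mineral balance. The samples came from 8-week-old female mice in 3 groups per tissue. The AF2 group (4 samples per tissue) carried a VdrAF2 allele, whose receptor lacks activation function 2, the surface that recruits coactivators. The KO group (4 samples per tissue) was Vdr-/-, a line that the table headers name demay. The WT group (6 samples per tissue) had the unaltered gene. All 3 groups, WT included, ate TD.96348, a rescue diet rich in calcium, phosphate and lactose, so each comparison is between genotypes on that diet. Neither allele is described as limited to a cell type.

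The distal convoluted tubule is a short nephron segment that takes up sodium chloride through the thiazide-sensitive cotransporter NCC, encoded by Slc12a3. WNK kinases activate SPAK, the kinase encoded by Stk39, which phosphorylates NCC, and a ubiquitin ligase with the adaptor KLHL3 marks WNK kinases for breakdown. The same cells set the final magnesium content of urine, taking up magnesium through the TRPM6 channel. These steps act largely on protein and its phosphorylation, which RNA counts do not show.

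The transcription start regions of Trpm6 and Wnk1 are shown because these genes are read in both tissues. Both sequences come from RefSeq on GRCm38.p6 and run from 250 bases before the RefSeq start to 50 after it. Trpm6 lies on the plus strand at chr19:18749480-18749779 and Wnk1 on the minus strand at chr6:120038606-120038905. Capitals mark a half-site of the kind that vitamin D receptor dimers bind.
Trpm6: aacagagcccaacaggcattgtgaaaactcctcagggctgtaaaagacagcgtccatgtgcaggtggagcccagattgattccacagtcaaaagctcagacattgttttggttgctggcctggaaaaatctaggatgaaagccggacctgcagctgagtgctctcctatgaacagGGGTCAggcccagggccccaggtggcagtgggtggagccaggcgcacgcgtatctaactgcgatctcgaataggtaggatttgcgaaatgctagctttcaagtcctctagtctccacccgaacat
Wnk1: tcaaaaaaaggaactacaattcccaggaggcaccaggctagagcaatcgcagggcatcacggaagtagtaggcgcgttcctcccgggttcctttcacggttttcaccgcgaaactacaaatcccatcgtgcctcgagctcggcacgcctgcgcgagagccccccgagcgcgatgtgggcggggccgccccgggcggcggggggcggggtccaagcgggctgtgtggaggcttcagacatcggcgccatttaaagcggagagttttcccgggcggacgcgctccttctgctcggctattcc
Of all 32851 promoters of the same length, searched on both strands, 16.3% held the half-site AGGTCA, 14% the half-site AGTTCA, 13.7% the half-site GGGTCA and 10.4% the half-site GGTTCA, and 43.7% held at least 1 of them. The Trpm6 sequence held GGGTCA once, ending 69 bases before the start, and the Wnk1 sequence held none of the 4. Of 14 promoters of the 10 genes, 4 held a half-site, in Trpm6, Klhl3 and Kcnj16. A direct repeat of these half-sites with a spacer of NNN was in 0 of the 14 and in 0.0396% of all promoters. Such matches describe letters, not bound sites.

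Vdr was lower in both mutants' kidneys. It measured 81.7, 85.0, 91.9 and 64.8 CPM (counts per 1000000, libraries scaled by TMM) in AF2 kidneys, 22.1, 21.0, 17.1 and 7.94 CPM in KO kidneys, and 177 to 212 CPM with a median of 201 CPM in WT kidneys. The log2 fold change was -1.29 ± 0.17 (SE) for AF2 over WT and -3.54 ± 0.20 for KO over WT, and the 3 groups did not overlap. The libraries count tags at transcript 3′ ends, so a tag outside the altered stretch of the gene says nothing of a working receptor, and the sources used here do not give the stretch deleted. In duodenum Vdr averaged 398 ± 29.7 CPM in AF2 and 111 ± 9.72 CPM in KO mice (SD, n = 4 each), and 487 ± 149.6 CPM in WT mice (n = 6). Kidney libraries held 1862824 to 3246114 reads and duodenum libraries 1856676 to 12590958. The enterocyte genes Fabp2, Alpi and Sis had 0 counts in every kidney library. WT 1 stood apart in kidney, with a summed level of 4 immune markers of 828 CPM against 83.0 to 176 CPM in the other 13 libraries. In such bulk samples fewer cells of a type and less RNA per cell cannot be told apart.

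None of the 10 genes passed the test in any kidney comparison. A gene passed at an adjusted p under 0.05 by edgeR's quasi-likelihood test, with Benjamini-Hochberg adjustment over all genes tested. The shares of all tested genes that passed were 0.844% for KO against WT, 2.71% for AF2 against WT and 0.333% for AF2 against KO. At an unadjusted p under 0.05, 5 of the 10 differed between KO and WT (10.5% of all genes tested did), 1 between AF2 and WT (14.5%), and 3 between AF2 and KO (11.5%). KO and WT libraries did not overlap for 3 of the 10 (3.44% of all genes tested), AF2 and WT libraries for 0 (4.73%), and AF2 and KO libraries for 2 (7.16%). The median log2 fold change over the 10 was 0.23 for KO over WT, 0.03 for AF2 over WT and -0.14 for AF2 over KO, and over all genes tested -0.0039, 0.0047 and 0.00018 in the same comparisons. Means in KO lay above WT for 8 of the 10, Kcnj16 and Pvalb being the exceptions. The comparisons share libraries (WT in both mutant comparisons, and KO or AF2 in the third), so their values are not independent. DESeq2 called 2 of the 10 in KO against WT (1.63% of all genes with an adjusted p), 1 in AF2 against WT (3.93%) and 2 in AF2 against KO (1.19%).

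**Figure D1:**
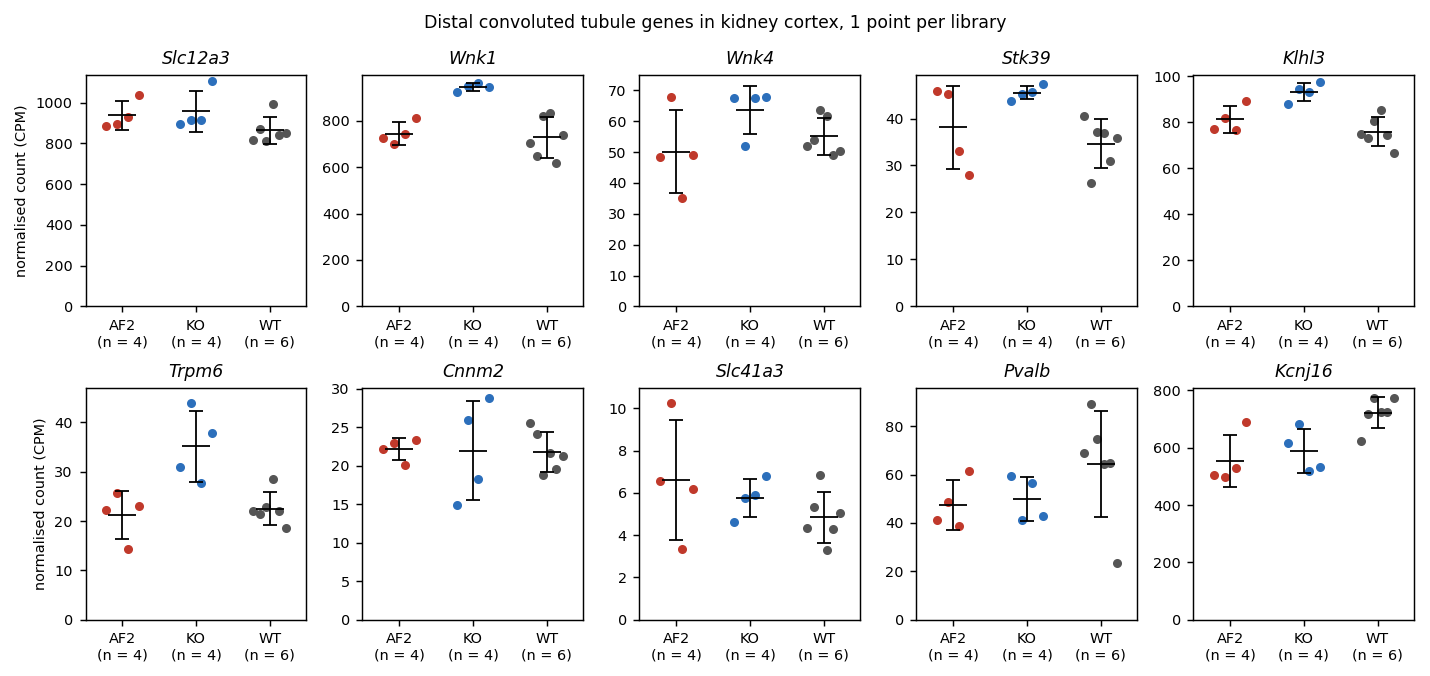
Normalised count (CPM, vertical axes starting at 0) of the 10 genes in each kidney library, 1 point per library, for AF2, KO and WT mice. The bar is the mean and the whiskers are 1 SD. KO points of Wnk1, Stk39 and Klhl3 all lie above every WT point, and AF2 points of Wnk1 and Trpm6 all lie below every KO point.

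Among the regulators of the cotransporter, Wnk1 had its highest counts in KO kidneys. Wnk1 (chr6:119923969-120038672, minus strand, mm10), the kinase at the head of the WNK-SPAK cascade, measured 724, 699.9, 741 and 813 CPM in AF2 kidneys and 922, 951, 964 and 945 CPM in KO kidneys, against 618 to 834 CPM with a median of 722 CPM in WT kidneys. All 4 KO libraries lay above every WT and every AF2 library, while AF2 lay within the WT range. The log2 fold change for KO over WT was 0.38 ± 0.10 (SE, 95% interval 0.18 to 0.58), with an adjusted p of 0.0554. For AF2 over KO it was -0.34 ± 0.11 (adjusted p 0.175), and for AF2 over WT 0.03 ± 0.10 (adjusted p 0.919). Wnk1 in KO against WT lay close to the threshold. Its adjusted p was 0.0441 without WT 3, 0.0425 without WT 4, 0.0138 without AF2 4 and 0.00769 by DESeq2. Leaving out each of the other 11 libraries kept it above the threshold, up to 0.199 without KO 4. Distal convoluted tubule cells also make a short Wnk1 transcript from an internal promoter, which lacks most of the kinase domain and shares the 3′ end, so the tags do not separate it from the full-length form.

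The order of library codes moved with this result. The labels give each library a number, and in each tissue the numbers fall into 3 unbroken runs, holding WT 1 and 2, then WT 3 and 4 with all KO, then WT 5 and 6 with all AF2. The labels do not call the runs batches. WT 3 and WT 4, which share a run with KO, averaged 827 CPM of Wnk1, and the other 4 WT libraries averaged 678 CPM. All 4 KO libraries still lay above both. With the run as a term, the log2 fold change of Wnk1 for KO over WT was 0.19 ± 0.12 (adjusted p 0.873), and for AF2 over KO -0.06 ± 0.16 (adjusted p 0.989). AF2 and KO share no run, so in that comparison run and genotype meet only through WT.

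Klhl3 and Stk39 followed the same order of groups as Wnk1. Klhl3 (chr13:58000228-58113592, minus strand), the ligase adaptor that binds WNK kinases, measured 77.1, 81.8, 76.8 and 89.3 CPM in AF2 kidneys and 88.0, 94.2, 92.9 and 97.6 CPM in KO kidneys, against 66.7 to 85.3 CPM with a median of 74.6 CPM in WT kidneys. KO and WT did not overlap, while AF2 overlapped both. Its log2 fold change for KO over WT was 0.30 ± 0.10 (adjusted p 0.219), and 0.17 ± 0.13 with the run as a term (adjusted p 0.936). Stk39 (chr2:68210445-68472268, minus strand), the kinase that phosphorylates NCC, measured 45.9, 45.3, 33.2 and 28.1 CPM in AF2 kidneys and 43.8, 45.3, 45.7 and 47.3 CPM in KO kidneys, against 26.3 to 40.6 CPM with a median of 36.4 CPM in WT kidneys. AF2 split into a high pair at the KO level and a low pair within the WT range, and KO and WT did not overlap. Its log2 fold change for KO over WT was 0.39 ± 0.15 (adjusted p 0.285), and 0.30 ± 0.20 with the run as a term (adjusted p 0.904). Wnk1, Klhl3 and Stk39 were the 3 genes whose KO and WT libraries did not overlap.

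Wnk4 showed more spread. Wnk4 (chr11:101260567-101277409, plus strand), a WNK kinase of this segment that is altered in human hyperkalaemic hypertension, measured 48.4, 67.8, 35.2 and 49.2 CPM in AF2 kidneys and 67.4, 51.9, 67.6 and 67.7 CPM in KO kidneys. WT kidneys ranged over 49.2 to 63.5 CPM with a median of 53.0 CPM. Each group overlapped the others, KO 2 stood away from the rest of its group, and AF2 had the widest range. Its log2 fold change was 0.21 ± 0.14 for KO over WT (adjusted p 0.655) and -0.35 ± 0.16 for AF2 over KO (adjusted p 0.396), and with the run as a term it was 0.03 and -0.02. An antisense gene, Gm11615, overlaps Wnk4, and the 3′ end of Coa3 on the opposite strand lies 559 bases past its end. Rad52 on the opposite strand ends 1141 bases past Wnk1. Whether counting used strand is not given in the sources used here, so tags of these neighbours cannot be told apart with certainty.

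Slc12a3, the target of this cascade, differed little. Slc12a3 (chr8:94329201-94366214, plus strand) measured 886, 895, 929.9 and 1036 CPM in AF2 kidneys, 897, 912, 913 and 1107 CPM in KO kidneys, and 813 to 995 CPM with a median of 844 CPM in WT kidneys. AF2 4, KO 4 and WT 4 were each the highest of their group, and the groups overlapped. The log2 fold change was 0.12 ± 0.10 for AF2 over WT (95% interval -0.08 to 0.31, adjusted p 0.633) and 0.15 ± 0.10 for KO over WT (-0.05 to 0.34, adjusted p 0.624). For AF2 over KO the interval was -0.25 to 0.18. All 3 intervals hold 0, and they span -0.25 to 0.34.

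**Figure D2:**
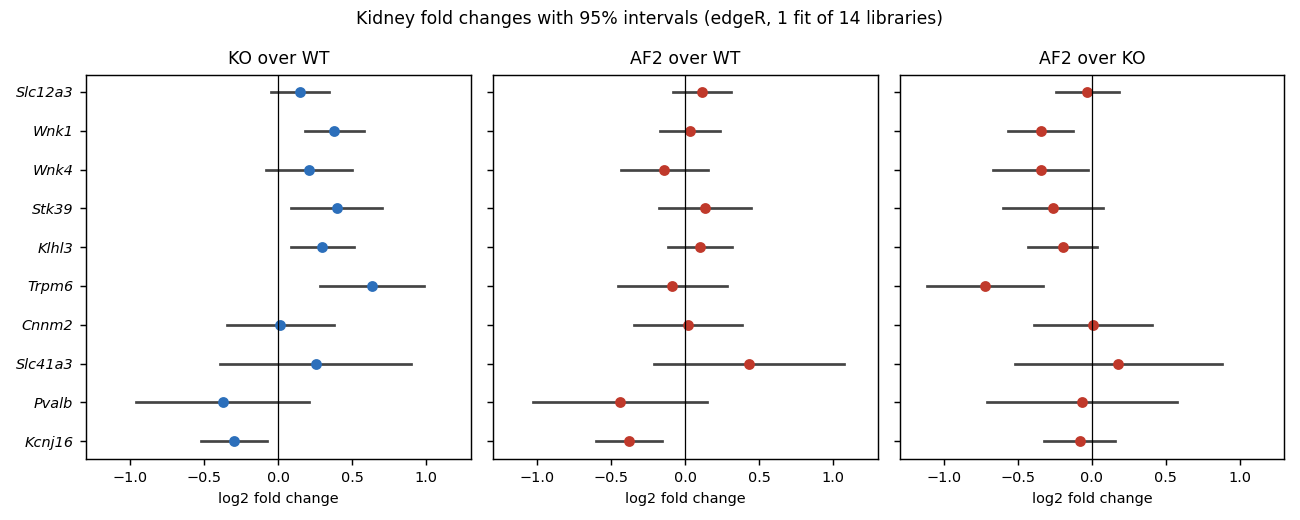
Log2 fold changes of the 10 genes in kidney with 95% intervals, for KO over WT, AF2 over WT and AF2 over KO, each from 1 fit of 14 libraries. Intervals of Wnk1, Stk39, Klhl3, Trpm6 and Kcnj16 lie clear of 0 for KO over WT, that of Kcnj16 for AF2 over WT, and those of Wnk1, Wnk4 and Trpm6 for AF2 over KO, before any adjustment for the number of genes tested.

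Of Trpm6, Cnnm2 and Slc41a3, the magnesium genes among the 10, Trpm6 had the lowest adjusted p for KO over WT and for AF2 over KO. Trpm6 (chr19:18749983-18892511, plus strand), the apical channel through which magnesium enters the cell, measured 22.2, 25.7, 14.3 and 23.0 CPM in AF2 kidneys and 30.9, 44.0, 27.7 and 37.8 CPM in KO kidneys, against 18.5 to 28.6 CPM with a median of 22 CPM in WT kidneys. All 4 AF2 libraries lay below every KO library, and 3 of 4 KO libraries lay above every WT library, KO 3 lying just under WT 4. On the log2 scale the fold change was 0.63 ± 0.17 for KO over WT (95% interval 0.28 to 0.99, adjusted p 0.0742), -0.72 ± 0.19 for AF2 over KO (-1.12 to -0.33, adjusted p 0.0983) and -0.09 ± 0.18 for AF2 over WT (adjusted p 0.880). Trpm6 and Wnk1 were the 2 genes whose AF2 libraries all lay below KO.

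Trpm6 rested on few reads, 34 to 63 per AF2 library, 60 to 107 per KO library and 33 to 78 per WT library. Pooled by group, it had 21.0 CPM of the unscaled totals in AF2 (95% exact Poisson interval 18.2 to 24.2), 35.3 in KO (31.7 to 39.1) and 22.5 in WT (20.2 to 25.1), intervals that cover counting error only. WT 3 and WT 4 averaged 25.7 CPM and the other WT libraries 21.0 CPM. With the run as a term the log2 fold change for KO over WT was 0.45 ± 0.23 (adjusted p 0.83) and for AF2 over KO -0.38 ± 0.34 (adjusted p 0.955). DESeq2 gave an adjusted p of 0.0393 for KO over WT and 0.0355 for AF2 over KO. With each library left out in turn, edgeR's adjusted p for KO over WT ran from 0.0409 without AF2 4, the single value under the threshold, to 0.366 without KO 2, where the log2 fold change was 0.49.

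**Figure D3:**
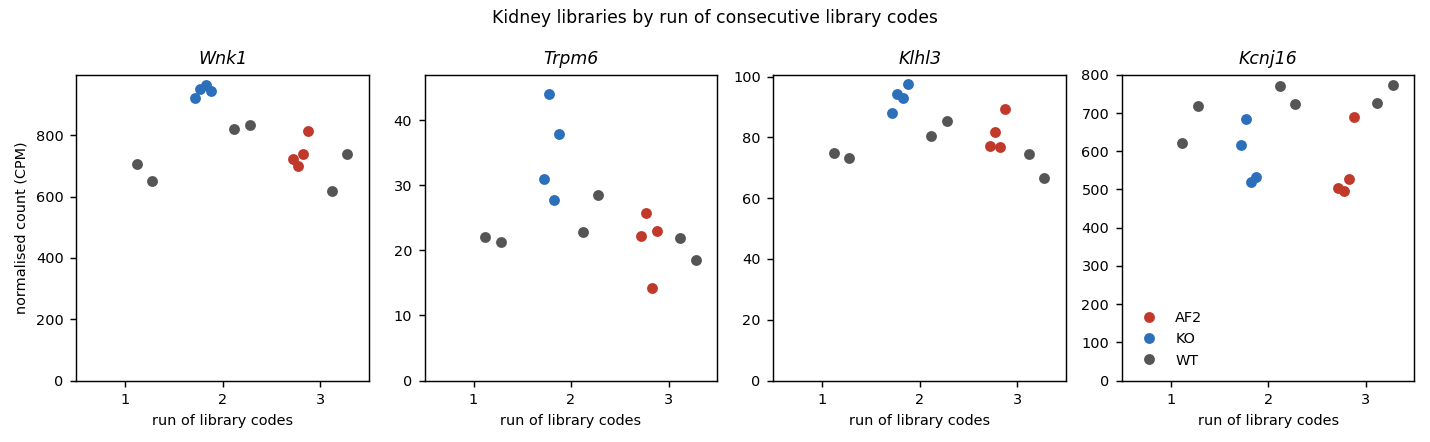
Normalised count (CPM, vertical axes starting at 0) of Wnk1, Trpm6, Klhl3 and Kcnj16 in each kidney library, by run of consecutive library codes, 1 point per library. KO stands beside WT 3 and 4 in run 2, and AF2 beside WT 5 and 6 in run 3. In both runs every mutant library lies below the WT libraries for Kcnj16, and in run 2 every KO library lies above them for Wnk1 and Klhl3.

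Cnnm2 and Slc41a3 did not separate the genotypes. Cnnm2 (chr19:46761596-46880192, plus strand), a basolateral membrane protein whose loss lowers blood magnesium in humans, averaged 22.1 ± 1.41 CPM in AF2 and 22 ± 6.44 CPM in KO kidneys (SD, n = 4 each), and 21.8 ± 2.60 CPM in WT kidneys (n = 6). Its 95% interval for KO over WT was -0.35 to 0.38 on the log2 scale, and for AF2 over WT -0.34 to 0.39. Slc41a3 (chr6:90604725-90646412, plus strand), a magnesium transporter of this segment, averaged 6.60 ± 2.84 CPM in AF2, 5.78 ± 0.892 CPM in KO and 4.86 ± 1.21 CPM in WT kidneys. It had 8 to 22 reads per library, and its interval for AF2 over WT ran from -0.21 to 1.07, which holds both 0 and a doubling. The genotypes overlapped for both genes.

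Kcnj16 had the lowest adjusted p of the 10 genes for AF2 against WT, on the side of lower counts in AF2. Kcnj16 (chr11:110968033-111027968, plus strand) encodes Kir5.1, a subunit of the basolateral potassium channel that sets the membrane voltage of these cells and through it the WNK cascade. It measured 504, 497, 529 and 689 CPM in AF2 kidneys and 615, 684, 520.2 and 532 CPM in KO kidneys, against 622 to 773 CPM with a median of 725 CPM in WT kidneys. In each mutant 3 of 4 libraries lay below every WT library, with AF2 4 and KO 2 inside the WT range, and WT 1 was the lowest WT library. The log2 fold change was -0.38 ± 0.11 for AF2 over WT (95% interval -0.60 to -0.16, adjusted p 0.0534), -0.30 ± 0.11 for KO over WT (adjusted p 0.244) and -0.08 ± 0.12 for AF2 over KO (adjusted p 0.858). For AF2 over WT the adjusted p was 0.00151 without AF2 4, 0.0247 without WT 1, 0.0413 without KO 2, 0.0475 without KO 1 and 0.0164 by DESeq2. Leaving out each of the other 10 libraries kept it above the threshold, up to 0.144 without AF2 1. Within its own run AF2 ranged over 497 to 689 CPM and WT 5 and 6 over 726 to 773 CPM, and the log2 fold change with the run as a term was -0.43 ± 0.14 (adjusted p 0.169). KO libraries of run 2 also lay below WT 3 and 4, with a log2 fold change of -0.35 ± 0.14 (adjusted p 0.669). Kcnj10, which encodes a partner subunit, had a log2 fold change of 0.07 for AF2 over WT (adjusted p 0.890) and 0.11 for KO over WT (adjusted p 0.852). Kcnj15, another potassium channel gene, measured 516 to 588 CPM in AF2, 654 to 775 CPM in KO and 586 to 670 CPM in WT kidneys. Its AF2 libraries lay wholly below KO, as AF2 and KO did not overlap for 7.16% of all genes tested, and it was not called. In WT kidneys Kcnj10 averaged 35.0 CPM, Kcnj15 625 CPM and Kcnj16 722 CPM. Such bulk counts do not show which cells the Kcnj16 tags came from.

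Pvalb depended on a single WT library. Pvalb (chr15:78191114-78206400, minus strand), the calcium-binding protein parvalbumin that marks the early part of the segment in mice, measured 41.3, 48.6, 38.6 and 61.6 CPM in AF2 kidneys and 59.2, 41.2, 56.4 and 42.7 CPM in KO kidneys. WT kidneys ranged over 23.5 to 89.3 CPM with a median of 66.8 CPM. WT 6 was the lowest of all 14 libraries, and the other 5 WT libraries, at 64.5 CPM or more, lay above every AF2 and KO library. Log2 fold changes were -0.44 ± 0.27 for AF2 over WT (adjusted p 0.511) and -0.37 ± 0.27 for KO over WT (adjusted p 0.691). Without WT 6, that for AF2 over WT was -0.60, with an adjusted p of 0.0253. With the run as a term it was 0.10, WT 6 being 1 of the 2 WT libraries in the run of AF2. Vdr lies on the same chromosome as Pvalb, at chr15:97854425-97910630, and whether that bears on the counts of Pvalb was not tested.

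Other genes of salt transport control and of magnesium handling mostly did not pass. Of 18 further genes around NCC (WNK, SPAK and ligase partners, mineralocorticoid genes, basolateral channels and the sodium pump), 16 were tested. In AF2 over WT 1 was called, and in KO over WT and AF2 over KO 0 were, with 2, 3 and 3 at an unadjusted p under 0.05 in KO over WT, AF2 over WT and AF2 over KO. Those at that p were 2 higher and 0 lower, 2 higher and 1 lower, and 1 higher and 2 lower. The median log2 fold change of the 16 was 0.13 for KO over WT, -0.04 for AF2 over WT and -0.13 for AF2 over KO. The called gene was Nedd4l, a ubiquitin ligase that takes sodium transporters off the membrane, which rose to 168 ± 36.2 CPM in AF2 kidneys, against 111 ± 12.8 CPM in WT kidneys (log2 fold change 0.60 ± 0.12, adjusted p 0.00329). Of 17 further magnesium genes 16 were tested. In AF2 over WT 1 was called, and 0 in the other comparisons, with 3, 3 and 4 at an unadjusted p under 0.05 in KO over WT, AF2 over WT and AF2 over KO. Umod, the urinary protein uromodulin, rose to 2490 ± 273 CPM in AF2 kidneys, against 1741 ± 228 CPM in WT kidneys (0.52 ± 0.11, adjusted p 0.00565). The median of the 16 magnesium genes was 0.07, -0.01 and -0.03 in the same 3 comparisons. Those at an unadjusted p under 0.05 were 2 higher and 1 lower, 2 higher and 1 lower, and 2 higher and 2 lower. Of all genes tested 10.5%, 14.5% and 11.5% reached that p, and 0.844%, 2.71% and 0.333% were called. Genotype and run are tied for these genes too. No fit with the run as a term is given for Nedd4l, Umod or the called markers below. With that term, calls among all genes for AF2 against WT went from 366 to 121.

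Markers of neighbouring segments moved as well. Slc12a1, the cotransporter of the thick ascending limb, rose in AF2 (0.43, adjusted p 0.0203) and in KO kidneys (0.45, adjusted p 0.0356). The summed level of 5 markers of that limb was 3391 to 3962 CPM in AF2, 2918 to 3690 CPM in KO and 2233 to 2944 CPM in WT kidneys, so AF2 lay wholly above WT. Umod, given above among the magnesium genes, is 1 of these 5 and made up most of the sum. It averaged 2490 CPM in AF2, 1979 CPM in KO and 1741 CPM in WT kidneys. S100g, the calbindin of the late distal tubule, fell in AF2 (log2 fold change over WT -3.92, adjusted p 2.70e-05) and in KO (-3.12, adjusted p 0.000376), while Calb1, the larger calbindin of the same cells, was called only for AF2 over KO (-0.69, adjusted p 0.0106). AF2 lay wholly below KO for 3 of the 5 late-segment markers, Calb1, S100g and Slc8a1, of which only Calb1 was called. Slc8a1 measured 154 to 277 CPM in AF2 and 315 to 445 CPM in KO kidneys. AF2 and KO did not overlap for 7.16% of all genes tested. The 5 late-segment markers summed to 2089 to 2464 CPM in AF2, 2101 to 2864 CPM in KO and 2401 to 3448 CPM in WT kidneys. Without S100g, a sum added after the data were seen, the other 4 came to 2039 to 2387 CPM in AF2, 2008 to 2753 CPM in KO and 1895 to 2192 CPM in WT kidneys, with means of 2143, 2345 and 2060 CPM in the same order, so the lower sums in the mutants rested on S100g. The 7 markers of the convoluted tubule, 5 of them among the 10 genes, summed to 1483 to 1805 CPM in AF2, 1501 to 1810 CPM in KO and 1353 to 1618 CPM in WT kidneys, with overlap of all groups and 0 of 7 called. The part of these shifts in the values of the 10 genes was not tested. Markers of other cell types were called too. Synpo of podocytes was higher in AF2 than in WT, and all 4 podocyte markers had a positive log2 fold change there. The 4 summed to 352 to 456 CPM in AF2, 273 to 303 CPM in KO and 220 to 283 CPM in WT kidneys. Atp6v0d2 and Slc4a1 of intercalated cells were higher in AF2 than in WT, with 4 of 5 markers on that list positive. Those 5 summed to 285 to 348 CPM in AF2, 255 to 421 CPM in KO and 202 to 265 CPM in WT kidneys. Cyp7b1 of the straight proximal tubule was higher in AF2 than in WT and in KO, while Slc22a7 and Slc5a1 of the same 4-gene list had log2 fold changes of -0.42 and -0.31 for AF2 over WT, neither of them called. Miox of the proximal tubule was higher in KO than in WT, while 4 of the 6 markers on its list had a negative log2 fold change. Cela1, listed as a pancreatic marker and the single gene tested of 4 on its list, was lower in both mutants than in WT. Of the others on that list, Prss2 and Ctrb1 had 0 counts in every kidney library, and Cpb1 had 2 reads in WT and 0 in AF2 and KO. Which cells the Cela1 tags came from was not tested.

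In duodenum, Wnk1 had the same order of groups as in kidney. It measured 259, 240.3, 241 and 227 CPM in AF2 mice and 279.9, 278, 285 and 278 CPM in KO mice, against 211 to 243 CPM with a median of 227 CPM in WT mice. All 4 KO libraries lay above every WT and AF2 library. The log2 fold change was 0.30 ± 0.10 for KO over WT (95% interval 0.10 to 0.50, adjusted p 0.241), -0.21 ± 0.11 for AF2 over KO (adjusted p 0.522) and 0.08 ± 0.10 for AF2 over WT (adjusted p 0.792). None passed, in a tissue where 0.0226% of genes passed for KO over WT, 0.015% for AF2 over KO and 0.0677% for AF2 over WT. Groups did not overlap for 2.2% of genes in KO over WT, 6.56% in AF2 over KO and 2.73% in AF2 over WT. Here too KO shares its run with WT 3 and 4, which averaged 238 CPM against 223 CPM in the other WT libraries, and with the run as a term the log2 fold change for KO over WT was 0.24 ± 0.13 (adjusted p 0.912). DESeq2 gave an adjusted p of 0.0377 for KO over WT. The KO effect in kidney minus that in duodenum was 0.12 ± 0.13 (adjusted p 0.886), and the AF2 effect -0.04 ± 0.13 (adjusted p 0.974), so no difference between tissues was detected for Wnk1. Of all genes in that joint fit 0.0535% passed for the KO effect and 0.381% for the AF2 effect.

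**Figure D4:**
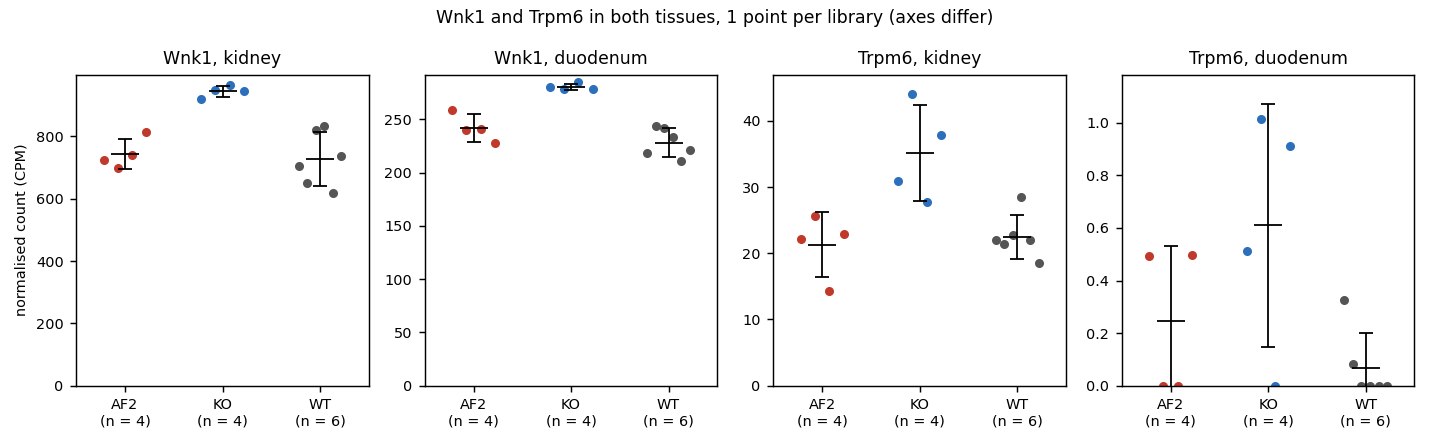
Normalised count (CPM) of Wnk1 and Trpm6 in each kidney and duodenum library for AF2, KO and WT mice, 1 point per library, with the mean and 1 SD. Vertical axes start at 0 and differ between panels. KO points of Wnk1 lie above all others in both tissues, and every duodenal Trpm6 point stands for at most 2 reads.

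Trpm6 was barely detected in duodenum and was not tested there. It had 2 reads over the 4 AF2 libraries, 5 over the 4 KO libraries and 2 over the 6 WT libraries. That is 0.219 CPM of the unscaled totals in AF2 (95% exact Poisson interval 0.0265 to 0.790), 0.604 in KO (0.196 to 1.41) and 0.0794 in WT (0.00962 to 0.287). The intervals of AF2 and WT overlap those of the others, and at this depth no order can be read from them. For the same reason no tissue difference is given for Trpm6. Of the other 8 genes, Stk39, Cnnm2 and Wnk4 passed the duodenal filter and none of them passed the test. Duodenal Wnk4 averaged 1.56 ± 0.440 CPM in AF2, 4.28 ± 1.48 CPM in KO and 2.22 ± 1.46 CPM in WT mice, from 15 reads in AF2 and 36 in KO. No AF2 library had more than 6 reads of Wnk4. KO was its highest group and may have carried it through the filter, so no order of groups is read from it. Slc12a3 had 1 read in each genotype. Pvalb had 0 reads, which allows up to 0.328 CPM in AF2, 0.363 in KO and 0.119 in WT.

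Across the 14 kidney libraries some of the 10 genes varied together. Pearson's r of log2 CPM was 0.84 for Wnk1 with Klhl3 and 0.57 after each genotype's mean was taken out, and 0.79 and 0.64 for Trpm6 with Klhl3. For Trpm6 with Wnk1 r was 0.69 over all libraries and 0.19 within genotypes. Slc12a3 with Klhl3 had 0.68 and 0.61. Wnk4 with Slc41a3 had 0.49 and 0.68, the highest within genotypes of any pair. The pairs named are examples from all pairs of the 10 genes. Stk39 and Kcnj16 ran opposite, with -0.59 and -0.56. These describe 14 libraries that share 3 genotypes and 3 runs. Among 9414 genes with a mean log2 CPM of at least 3, those most like Slc12a3 over the 14 libraries were Chd4, Vegfd, Endod1, Tor1b and Gatad2a (r 0.81 to 0.83). Those most like Trpm6 were Zdhhc21, mt-Tm, Abca9, Cpsf2 and Usp47 (0.83 to 0.88), and those most like Pvalb were Micos13, Tmed8, Riok2, Arhgdib and Prkce (0.79 to 0.87).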

How the data were processed

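RNA was measured in 28 samples, 14 of kidney cortex and 14 of duodenum. Per the labels' protocols, total RNA was extracted with TRIzol and libraries were made with a QuantSeq kit, which reads transcript 3′ ends. The deposited values are raw counts, with a row per gene symbol and a column per library in 1 table per tissue, and the file headers give sex, age and diet. Build mm10 and limma 3.34.9 are named in the submitters' processing notes. The sources used here do not give the aligner, the counter or strand use. All deposited counts were even (0 odd values), so reads are given as counts divided by 2, and tests used counts as deposited. Library totals were 3725648 to 6492228 counts in kidney and 3713352 to 25181916 in duodenum, where WT 2 had the highest. Genotype came from the titles, and each library's code matched it to its column.

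Each tissue was fitted in edgeR 4.0.16 (R 4.3.3) with all 14 libraries, filterByExpr by group, TMM scaling and robust quasi-likelihood tests (two-sided), genotype being the only term, and Benjamini-Hochberg adjustment over all genes tested in the contrast. SE was taken as the size of the log2 fold change divided by the root of F. The tissue difference is an interaction in 1 fit of 28 libraries over 14944 genes. Alternatives were other scalings, no filter, DESeq2 1.42.0, limma 3.58.1 (voom), only the 2 genotypes compared, counts halved, a replicate block, a block of library code runs, and leaving out each library. Coordinates are GENCODE vM21 (97.3% of kidney symbols matched), and promoters RefSeq, in which all 10 genes matched. No 2 libraries of a group were identical, and all differed by more than sampling noise. The labels do not say which mouse each sample came from, so p-values measure only the spread between these samples, which may be partly technical.

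The genes and lists were chosen with earlier results of these data known. The rule names all 10 genes and Vdr, every listed pathway or marker gene called in a kidney contrast (except a called marker gene that is not reported here), and the 5 genes most like Slc12a3, Trpm6 and Pvalb. Kcnj10 and Kcnj15 were named beside Kcnj16 after their values were seen, as were Slc22a7, Slc5a1, Slc7a13 and Slc8a1 beside the called genes of their lists.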

Additional observations from a re-analysis of the deposited data

Results flagged for a closer look

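Within groups of 4 to 6 libraries, 5 of 33 sets of values (the 10 genes in kidney and Wnk1 in duodenum, each in 3 genotypes) held a library that stood apart from its group by Dixon's criterion, all of them in kidney, where chance alone gives about 1 in 20. Slc12a3 measured 1107 CPM in KO 4, above 897 to 913 CPM in the other KO kidneys. It measured 995 CPM in WT 4, above 813 to 869 CPM in the other WT kidneys. Wnk4 measured 51.9 CPM in KO 2, below 67.4 to 67.7 CPM in the other KO kidneys. Kcnj16 measured 689 CPM in AF2 4, above 497 to 529 CPM in the other AF2 kidneys, and 622 CPM in WT 1, below 718 to 773 CPM in the other WT kidneys.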

How the results depend on the processing

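Under the alternatives 40 of the fitted values of single genes changed direction and 27 came to pass the threshold, while 812 kept both. For KO over WT, Cnnm2 was -0.020 by limma-voom, -0.0035 with counts halved and -0.048 with the replicate block. For AF2 over WT with the run as a term, Trpm6 was 0.069, Wnk4 0.0086 and Pvalb 0.097. For AF2 over KO in that fit, Slc12a3 was 0.067, Klhl3 0.034, Pvalb 0.58 and Cnnm2 -0.0087, and Cnnm2 was -0.0014 with RLE factors and -0.0020 by DESeq2. The cause of these shifts was not tested.

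Counts of the 10 genes called, 0 in the fit reported, were 1 (upper-quartile scaling, limma-voom) and 2 (no filter, DESeq2, 2 genotypes only) for KO against WT, 1 (RLE factors, no filter, DESeq2, limma-voom, counts halved) for AF2 against WT, and 1 (no filter) and 2 (DESeq2) for AF2 against KO. Those genes were Wnk1 and Trpm6 for KO against WT and AF2 against KO, and Kcnj16 for AF2 against WT. Of all genes, 114, 366 and 45 were called in kidney for KO against WT, AF2 against WT and AF2 against KO. Without the filter the counts were 252, 590 and 193. DESeq2 called 220 for KO against WT and 151 for AF2 against KO, the fit of 2 genotypes 177 for KO against WT, and the fit with the run as a term 25, 121 and 1. In duodenum 3, 9 and 2 genes were called. Counts there were 215, 240 and 106 without the filter and 110, 154 and 93 by DESeq2. With the run as a term they were 1, 131 and 5. Counts halved gave 8 for KO against WT. For AF2 against WT upper-quartile scaling gave 26, limma-voom and the fit of 2 genotypes 0. For AF2 against KO limma-voom gave 1 and the fit of 2 genotypes 50. The tissue difference had 8 calls for KO and 57 for AF2, and 2 and 28 by limma-voom.

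Leaving out each library gave 38 to 206 calls in kidney for KO against WT (38 without KO 4, 44 without KO 3, 70 without KO 2, 66 without WT 2 and 206 without AF2 4), 294 to 365 for AF2 against WT and 22 to 78 for AF2 against KO (22 without KO 2, 24 without KO 4 and 78 without WT 1). Of the 10 genes 0 to 2 were called for KO against WT, 0 to 1 for AF2 against WT and 0 for AF2 against KO. Duodenum had 1 to 229, 0 to 217 and 1 to 4 calls, with 229 and 217 without WT 4, 13 for KO against WT without KO 2 and 8 without WT 6, and 0 or 1 for AF2 against WT without any of WT 1, WT 2, WT 3, WT 6, KO 3, AF2 1, AF2 3 and AF2 4, and the tissue difference 0 to 23 for KO and 19 to 123 for AF2. Directions changed for Cnnm2 in KO over WT (-0.16 to 0.15), for Trpm6 (-0.20 to 0.059), Wnk1 (-0.018 to 0.076) and Cnnm2 (-0.034 to 0.069) in AF2 over WT, and for Slc12a3 (-0.087 to 0.060), Pvalb (-0.22 to 0.019), Cnnm2 (-0.14 to 0.18), Slc41a3 (-0.10 to 0.40) and Kcnj16 (-0.21 to 0.0094) in AF2 over KO.

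The replicate block gave 1 call among the 10 genes for AF2 against WT, Pvalb (-0.64, adjusted p 0.0492), Wnk1 there being -0.011 and Cnnm2 -0.024. In duodenum the block gave 1 call for AF2 against WT and 14 for AF2 against KO. Equal numbers share only a number: deviations of same-numbered libraries correlated between -0.04 and 0.17 in kidney (over 0.1 in 1 of 12 pairs) and between -0.20 and 0.10 in duodenum, and 8 of 24 and 6 of 24 comparisons were best with their own number. Slc41a3, at 8 to 22 reads a library, and duodenal Trpm6 are limited by depth.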
